A study of Mus musculus with 142 samples.

Results

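The Snrpn-Ube3a domain is the imprinted stretch of mouse chromosome 7 that holds Ube3a, Snrpn, Ndn, Magel2 and Mkrn3. It was taken here as chr7:59000001-62500000 (mm10), that is 70 of the 49264 autosomal windows of 50 kb in the table. In an imprinted domain the copy from one parent is expressed and the other is silenced, under the direction of a differentially methylated imprinting centre, which lies at the Snurf/Snrpn start site in this domain. Snrpn, Ndn, Magel2 and Mkrn3 are expressed from the paternal copy, and Ube3a from the maternal copy in neurons. Imprinted loci are known as places where the parental copies can replicate at different times in S phase, and the question here was whether and where the homologs differ in timing in this domain.

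The measurements were E/L Repli-seq values, log2 of early over late S-phase reads, in F121-9 cells, a hybrid mouse embryonic stem cell (mESC) line with one musculus and one castaneus (CAST) copy of each autosome, grown in 2i and LIF. A value above 0 means replication mostly in early S phase and a value below 0 mostly in late S phase. There were 66 libraries from 53 clones of 26 cell lines, and 19 of the cell lines had 2 or more clones. Every clone was derived from the one F121-9 line and carried one or more CRISPR-mediated deletions in the Dppa2/4 domain on chromosome 16, on the musculus or the castaneus homolog, and no library of unmodified cells was analysed here. The cell lines are named by what was deleted. A, B and C are the early replication control elements (ERCEs), OSN marks a site bound by Oct4, Sox2 and Nanog within an element (COSN1, COSN12 and COSN123 lack 1, 2 or all 3 such sites of C), TSS marks a transcription start site, Z is a further OSN site, CL20k, CR11.8k, CR13.4k and CR14.6k are larger partial deletions of C, and COSN1.2.8k is another deletion at COSN1. In the column headers, some clones carry one of their deletions on the castaneus homolog as well as the musculus one, namely B in A.B.COSN123 clone 5A.7 and in AOSN.B.COSN123 clones 2A.2, 3C.4 and 5A.6, ATSS in ATSS.BTSS.CTSS clones A1, A8 and C4, and BTSS in BTSS.CTSS clone C11. None of these deletions is on chromosome 7, so the 53 clones were used together, with the clone as the unit. Of these, 24 clones carry COSN123, which the study recovered in a single clone before further deletions were made, so clones are not fully independent and p-values measure the spread between these clones only. The paper also made COSN12 in a COSN1 line and BTSS.CTSS in a CTSS background. Shared parents therefore remain without the COSN123 clones and with cell lines as units. The strain of a homolog and the parent it came from coincide in this line and cannot be told apart, and which strain was the mother is not given in the sources used here.

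Values were sparser in the domain than elsewhere. A column of the table had a value in 73.8% to 93.8% of all windows, but in 18.6% to 87.1% (median 60.7%) of the domain's. No library had a value in 9 of the 70 windows, 8 of which lie between Ube3a and Snurf, in the snoRNA cluster, and these 9 windows hold 156 of the 210 annotated snoRNA genes of the domain. Their sequence was 61.1% repeat-masked at the median, against 42.2% in the other 61 windows, and 2 of the 9 contain unsequenced bases. Both homologs had a value in at least 80% of clones in 22 windows, which are the windows tested one by one.

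Between the Snurf/Snrpn start and the most upstream Snrpn start lies the run of windows, described further on, in which the castaneus homolog was earlier. Their promoters are therefore shown from RefSeq (GRCm38/mm10), from 250 bases before the start to 50 after it, both on the minus strand. CpG dinucleotides are in capitals.
Snurf/Snrpn start, chr7:60005150-60005449: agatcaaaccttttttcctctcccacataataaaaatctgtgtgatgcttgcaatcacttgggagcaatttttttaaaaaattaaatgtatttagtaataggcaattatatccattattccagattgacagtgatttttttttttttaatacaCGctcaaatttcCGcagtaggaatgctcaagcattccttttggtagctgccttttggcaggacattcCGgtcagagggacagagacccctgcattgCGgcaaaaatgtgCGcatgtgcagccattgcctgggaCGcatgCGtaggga
Upstream Snrpn start, chr7:60450128-60450427: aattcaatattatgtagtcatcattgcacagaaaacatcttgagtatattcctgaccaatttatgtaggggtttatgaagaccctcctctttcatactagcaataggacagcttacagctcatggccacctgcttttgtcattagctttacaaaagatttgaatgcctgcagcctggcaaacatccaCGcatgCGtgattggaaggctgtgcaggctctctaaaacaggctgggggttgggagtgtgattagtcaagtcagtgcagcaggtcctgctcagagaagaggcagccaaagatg
The first holds 7 CpG, the median of the 32851 promoters in the same table, and 52.1% of these have as many. The second holds 2 CpG, and 85.9% have as many. The upstream start shares an identical run of 62 bases with the Snrpn start at chr7:60140176-60140475, whereas its longest run shared with the Snurf/Snrpn promoter is 10 bases. Of the other members, 29 CpG were counted at Ube3a (a number reached by 12.9% of promoters), 15 at Mkrn3, 11 at Ndn and 10 at Magel2.

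The whole domain replicated late, on both homologs. The mean over its windows was -1.15 ± 0.13 on musculus and -1.09 ± 0.14 on castaneus (SD, n = 53 clones), and none of the 61 windows with a value had a mean above 0 on either homolog, so that neither curve crossed from late to early inside it. Over the clones the musculus mean ran from -1.41 in BOSN12.COSN123 clone A2 to -0.87 in A.COSN12 clone D6 (median -1.17), and the castaneus mean from -1.30 in COSN12 clone C6 to -0.67 in CR14.6k clone 53 (median -1.11). The ranges of the homologs overlapped over most of their length. Each clone's mean is over the windows that the clone has. Both homologs had a value in 20 windows in A.COSN12 clone D6 and in 20 in CR14.6k clone 53. The number was 38 in BOSN12.COSN123 clone A2 and 57 in COSN12 clone C6. Coverage and timing cannot be told apart in these ranges. Of all windows tested in the genome, 8.76% replicated later than the domain's mean level.

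Within this late stretch the timing curve had a rise at each of the gene clusters and a trough in the gene-poor interval. The segment from Ube3a to Snrpn (24 windows, chr7:59000001-60200000) had a mean of both homologs of -0.89 ± 0.11 (SD, n = 53), the interval that follows (40 windows, chr7:60200001-62200000) -1.25 ± 0.18 (n = 53), and the segment from Ndn to Mkrn3 (6 windows, chr7:62200001-62500000) -1.05 ± 0.19 (n = 46). GENCODE places 4 protein-coding genes in each of the outer segments and none in the interval, which has 7 lncRNA genes and 20 miRNA genes. In RefSeq the upstream part of Snrpn reaches into the interval, to 60450177. The Ube3a to Snrpn segment was earlier than the interval by 0.36 ± 0.19, in 50 of 53 clones, and earlier than the Ndn to Mkrn3 segment by 0.17 ± 0.17, in 41 of 46. The Ndn to Mkrn3 segment was earlier than the interval by 0.24 ± 0.15, in 44 of 46 clones. Each of these 3 differences had an adjusted p of 1e-05 in a two-sided sign-flip permutation test over clones, the smallest that 100000 resamples can give. The interval was also the poorest in GC, with a median of 37.7% per window against 39.2% from Ube3a to Snrpn, 37.9% from Ndn to Mkrn3 and 41.4% over all windows.

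**Figure D1:**
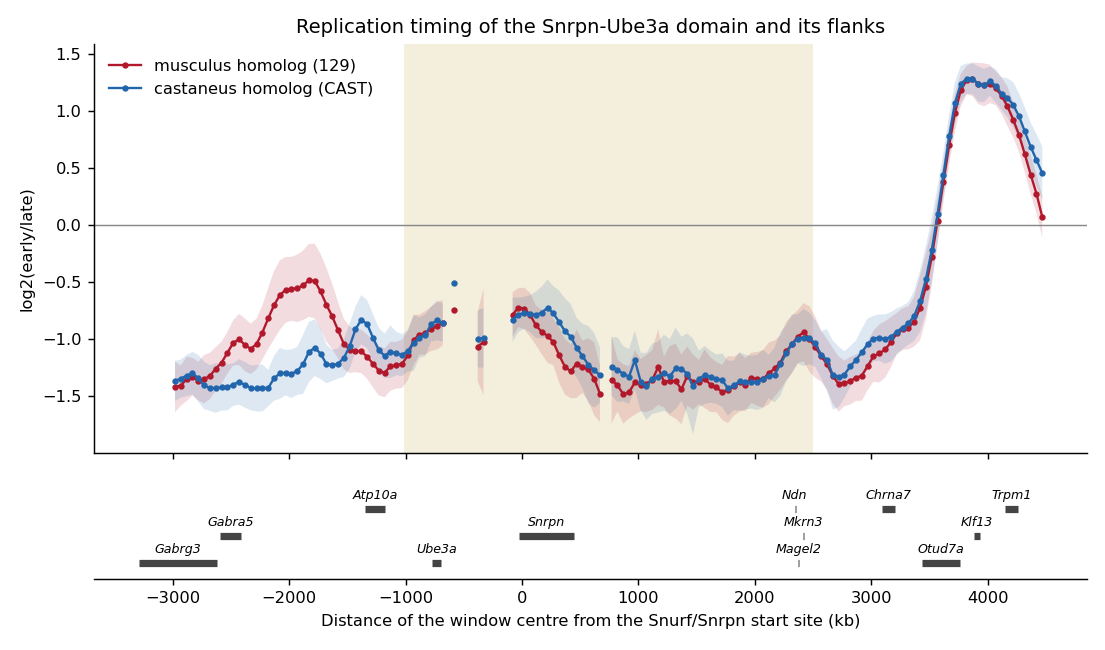
Replication timing, log2(early/late), of the musculus homolog (red) and the castaneus homolog (blue) in 50 kb windows, against the distance in kb from the Snurf/Snrpn start site. Points are means over clones in windows with at least 3 clones, bands are ± 1 SD between clones, the shaded span is the domain and bars below mark genes. Both homologs stay below 0 in the domain, with rises at Ube3a to Snrpn and at Ndn to Mkrn3.

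Among the 22 windows with both homologs in at least 80% of clones, the earliest on the musculus homolog was chr7:59950001-60000000, in which Snurf and Snrpn, encoding a small upstream reading frame protein and a spliceosomal Sm protein, end. It had -0.72 ± 0.17 on musculus and -0.79 ± 0.15 on castaneus (n = 52 each). The earliest of the 22 on castaneus lay further upstream of the Snrpn start, at chr7:60200001-60250000, with -0.73 ± 0.25 on castaneus (n = 51) and -0.97 ± 0.23 on musculus (n = 46). The latest of the 22 windows lay in the interval, at chr7:61650001-61700000 on musculus (-1.42 ± 0.22, n = 50) and at chr7:61800001-61850000 on castaneus (-1.41 ± 0.22, n = 44). Among these windows, the earliest of one homolog was thus not the earliest of the other, but the leads were small against the SD. The next window had -0.73 ± 0.18 on musculus (chr7:60000001-60050000) and -0.77 ± 0.23 on castaneus (chr7:60150001-60200000). Windows with fewer clones held later means on both homologs and, on castaneus, an earlier one in chr7:59400001-59450000 (-0.51, n = 4).

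Among the members, Ube3a (chr7:59228750-59310837, plus strand), which encodes an E3 ubiquitin ligase, ran on musculus from -1.45 to -0.38 over clones (median -0.89) and on castaneus from -1.30 to -0.54 (median -0.86). The homologs overlapped throughout, and musculus minus castaneus was -0.03 ± 0.18 (SD, n = 48), with musculus earlier in 23 clones. Snurf (chr7:59982495-60005199, minus strand), whose windows hold the imprinting centre, ran from -1.05 to -0.43 on musculus (median -0.71) and from -1.10 to -0.49 on castaneus (median -0.76). Here musculus minus castaneus was 0.05 ± 0.19 (n = 53), with musculus earlier in 33 clones. The differences at both genes were smaller than their SD between clones.

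Snrpn (chr7:59982495-60450177, minus strand, in RefSeq, which includes upstream exons; GENCODE ends it at 60140219) ran from -1.31 to -0.54 on musculus (median -0.98) and from -1.15 to -0.35 on castaneus (median -0.83). Over the RefSeq body, the castaneus homolog was earlier at Snrpn in all but 10 of 53 clones, by a mean difference (musculus minus castaneus) of -0.13 ± 0.14. The windows of the shorter GENCODE body, from chr7:59950001-60000000 to chr7:60100001-60150000, had differences of 0.06, 0.04, -0.01 and -0.09. The RefSeq value thus rests on the upstream windows, most of which are in the run described further on. Snhg14, the long host transcript of the snoRNAs, spans the same upstream windows and had -0.09 ± 0.13, with musculus earlier in 13 of 53 clones. Ipw, a lncRNA inside the snoRNA cluster, had -0.02 ± 0.35 over the 32 clones with a value.

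The 3 intronless genes at the distal end and Peg12 beside them were alike on both homologs. Ndn (chr7:62348277-62349928), encoding the MAGE-family protein necdin, ran from -1.88 to -0.49 on musculus (median -1.03) and from -1.56 to -0.35 on castaneus (median -1.03), with a difference of -0.02 ± 0.31 (n = 35). Magel2 (chr7:62376979-62381640), encoding another MAGE-family protein, ran from -1.40 to -0.27 on musculus (median -1.01) and from -1.43 to -0.53 on castaneus (median -0.96), with a difference of 0.02 ± 0.23 (n = 41). Mkrn3 (chr7:62417593-62420153), encoding a zinc finger ubiquitin ligase, ran from -1.68 to -0.39 on musculus (median -0.98) and from -1.44 to -0.46 on castaneus (median -0.996), with a difference of 0.05 ± 0.25 (n = 45). Peg12 had 0.01 ± 0.28 (n = 43). The homologs of these 4 genes overlapped over nearly their whole range.

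Ordered by the mean of both homologs, Ube3a (-0.88) and Snrpn (-0.89) did not differ beyond their spread (-0.0042 ± 0.15 for Snrpn minus Ube3a, n = 48, Snrpn earlier in 24). Mkrn3 (-0.96) followed, with Snrpn minus Mkrn3 at 0.08 ± 0.23 (n = 45, Mkrn3 later in 31), then Magel2 (-0.99), with Mkrn3 minus Magel2 at 0.03 ± 0.08 (n = 40, Magel2 later in 26), and Ndn (-1.05). Ndn was later than Magel2 by 0.07 ± 0.10, in 28 of 34 clones, although their windows are neighbours and were smoothed together. Each step between neighbours in this order was smaller than the SD of the paired difference over clones.

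**Figure D2:**
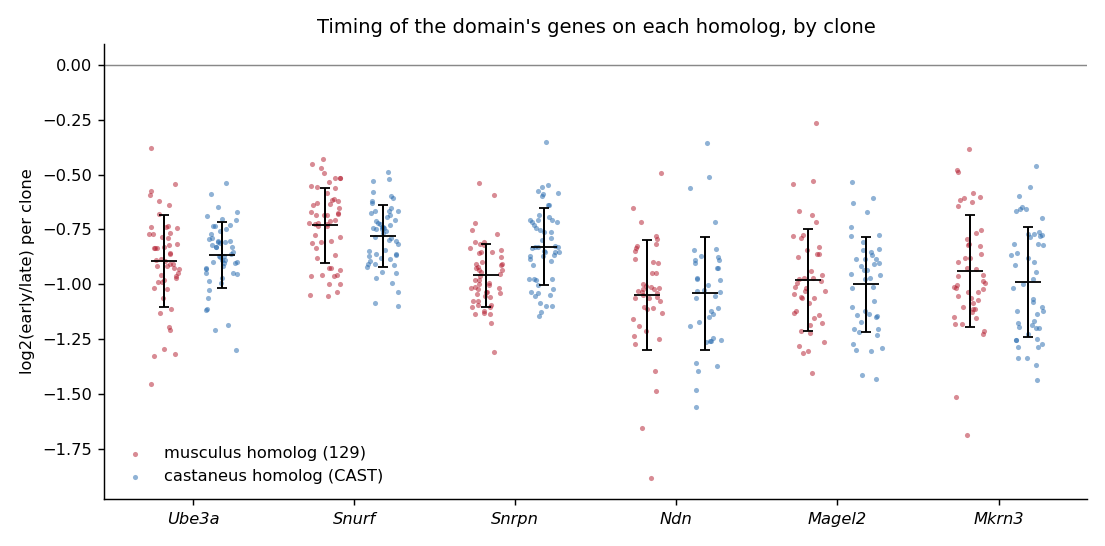
Replication timing, log2(early/late), of the windows overlapped by each gene, one point per clone, for the musculus homolog (red) and the castaneus homolog (blue). Black bars are the mean ± 1 SD over clones. The homologs overlap at every gene, and the means are furthest apart at Snrpn, taken as its RefSeq body (-0.96 on musculus and -0.83 on castaneus).

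Averaged over the domain, musculus minus castaneus was -0.05 ± 0.09 (SD, n = 53), from -0.27 in CR14.6k clone 53 to 0.19 in COSN12 clone D3 (median -0.04). CR14.6k clone 53 had both homologs in 20 domain windows and COSN12 clone D3 in 50. The fewest were 4, in BTSS.CTSS clone G3, and every clone was weighted equally. castaneus was earlier in 35 clones and musculus in 18 (p = 0.0008, two-sided sign-flip permutation test with 100000 resamples). This mean rested on windows with few clones. Over the 22 windows with both homologs in at least 80% of clones, an alternative chosen after seeing the data, it was -0.03 (p = 0.104 in the same permutation test). By segment, musculus minus castaneus was -0.02 ± 0.13 from Ube3a to Snrpn (n = 53, adjusted p = 0.295 over the 6 comparisons of segments), -0.08 ± 0.13 in the interval (n = 53, castaneus earlier in 41 clones, adjusted p = 0.00012) and 0.02 ± 0.21 from Ndn to Mkrn3 (n = 46, adjusted p = 0.526), all by the same sign-flip permutation test. Restricted to the 22 windows, the interval's difference was -0.06 (permutation adjusted p = 0.0626). The interval starts at chr7:60200001, so it holds the upstream windows of RefSeq Snrpn, which ends at 60450177. Its difference therefore includes most windows of the run upstream of Snurf described below, and is not that of a gene-free stretch alone.

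The musculus minus castaneus difference of the Ube3a to Snrpn segment was above that of the interval by 0.06 ± 0.18, and that of the Ndn to Mkrn3 segment by 0.08 ± 0.23 (permutation adjusted p = 0.0404 for both). These calls were narrow. The first was lost on leaving out any one of 19 of the 53 clones, furthest without CR14.6k clone 53 (0.04, adjusted p = 0.0778, permutation), and the second on leaving out any one of 14, furthest without ATSS.BTSS.CTSS clone A1 (0.07, adjusted p = 0.0613, permutation). Both calls were also lost with cell lines as units (permutation adjusted p = 0.0871 and 0.082), without the COSN123 clones (0.149 for both) and over the 22 windows (0.182 and 0.181). The outer segments differed from each other by -0.05 ± 0.22 (n = 46, permutation adjusted p = 0.162).

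Window by window, limma called none of the 22 domain windows earlier on castaneus and none earlier on musculus at an adjusted p under 0.05 with a mean difference of at least 0.25. Over the 37777 windows tested in the genome, 11.9% were called earlier on castaneus and 9.88% earlier on musculus. By adjusted p alone, 5 of the 22 were earlier on castaneus and 1 on musculus, against 36.6% and 30.4% of all windows, and by unadjusted p the counts were also 5 and 1. The median size of the difference was 0.04 in the 22 windows and 0.10 over all windows tested. The absence of a call was close to the size condition, since one window stood at -0.25, just short of it, and leaving out any one of 25 of the 53 clones gave 1 call, or 2 without COSN12 clone D3. The 5 windows earlier on castaneus by adjusted p alone, named after their values were seen, were 4 consecutive windows from chr7:60100001-60150000 to chr7:60250001-60300000 and chr7:61650001-61700000. The one earlier on musculus was chr7:59950001-60000000 at the 3' end of Snurf (0.06 ± 0.21, n = 52, limma adjusted p = 0.0435).

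Among the windows tested, the larger differences thus lay upstream of the Snurf/Snrpn start rather than in the window that holds it. Values were smoothed over 300 kb, and 8 windows between Ube3a and Snurf had no value. The place where the homologs part is therefore not resolved within that span. From the start site leftwards to Ube3a, and again from Ndn to Mkrn3, the means of the homologs differed by at most 0.06 in the windows tested. To the right of the start, the musculus homolog fell at once whereas the castaneus homolog stayed on a plateau. By linear interpolation between window centres, the mean curve fell through -1 at position 60249147 on musculus and at 60435117 on castaneus, 186 kb further on. The level of -1 was not planned beforehand, and neither curve crosses 0 here. The musculus fall lies between windows with 46 and 49 clones, the castaneus fall between windows with 47 and 37. The distance has no estimate of spread and is shorter than the smoothing span. The largest difference of a window tested was in chr7:60250001-60300000, with -1.03 ± 0.20 on musculus (n = 49) and -0.78 ± 0.24 on castaneus (n = 53), a difference of -0.25 ± 0.27 (SD, n = 49, lowest -0.81, median -0.25, highest 0.37, castaneus earlier in 38 clones, limma adjusted p = 1.59e-08).

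A run of 6 consecutive windows had a mean difference of -0.15 or below, chr7:60150001-60450000, which begins 145 kb upstream of the Snurf/Snrpn start and ends at the upstream Snrpn start shown above. It was chosen by its values and is described without a test. The ends of the run depend on the cut at -0.15. The adjoining windows had -0.09 (chr7:60100001-60150000, n = 52) and -0.14 (chr7:60450001-60500000, n = 27). The run is also as long as the smoothing span, 300 kb. Its means were -1.06 ± 0.19 on musculus and -0.83 ± 0.22 on castaneus, and musculus minus castaneus was -0.23 ± 0.21 (SD, n = 53, lowest -0.70, median -0.28, highest 0.25). castaneus was earlier in 45 clones and musculus in 8. Only the first 3 windows of the run reached 80% of clones, and each clone's value is over the windows of the run that it has. When windows with 3 or more clones were admitted, 61 domain windows were tested and 3 were called earlier on castaneus (background 10.5% of 46362 windows) and none on musculus (8.68%). These, named after their values were seen, were chr7:60300001-60350000 (-0.26 ± 0.04, SE, n = 41) and chr7:60350001-60400000 (-0.27 ± 0.05, SE, n = 34) in the run, and chr7:59400001-59450000 in the snoRNA cluster, where only 3 clones had a value (-0.44 ± 0.17, SE).

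**Figure D3:**
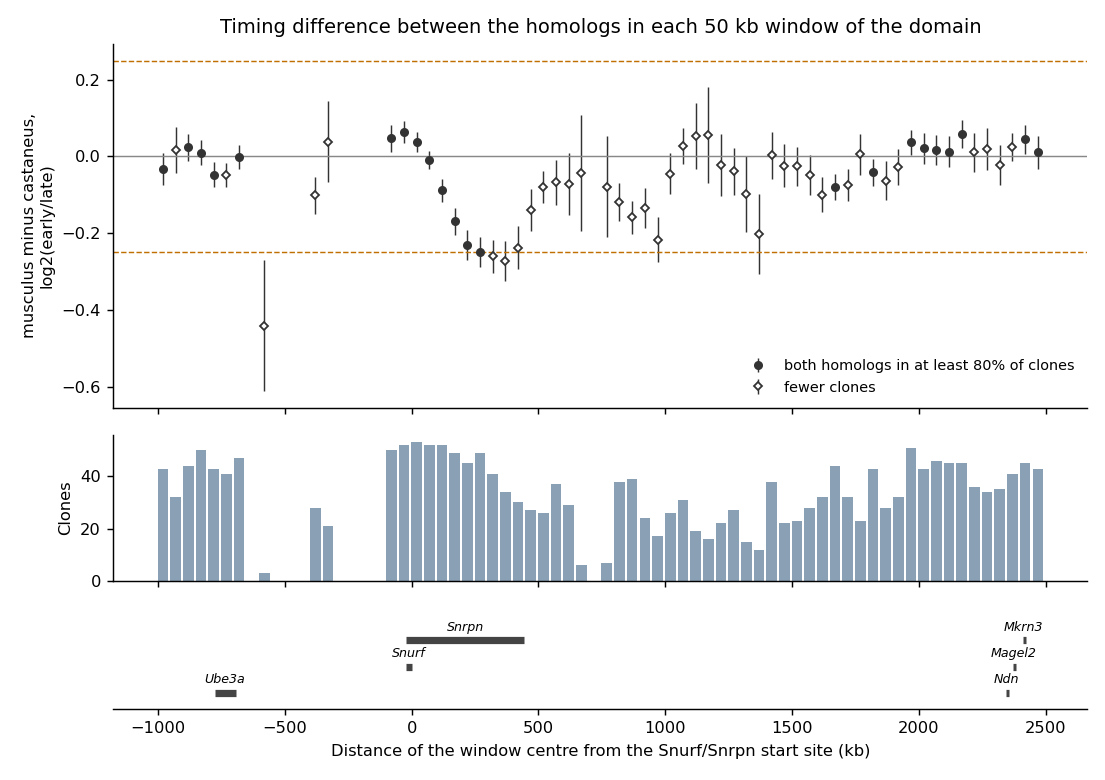
Top, musculus minus castaneus in log2(early/late) per 50 kb window of the domain, mean ± SE over clones, against the distance in kb from the Snurf/Snrpn start site, with filled points for windows with both homologs in at least 80% of clones and dashed lines at ± 0.25. Middle, number of clones with both homologs, and bottom, genes. The lowest filled point, at -0.25, lies upstream of the Snurf/Snrpn start, over the upstream part of Snrpn. The point near -0.44 between Ube3a and Snrpn rests on 3 clones.

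The flanks differed more between homologs than the domain did. In the 40 windows on the left, from Gabrg3 to Atp10a, musculus minus castaneus was 0.23 ± 0.12 (n = 53) and musculus was earlier in 52 clones, so that the domain was lower by 0.28 ± 0.15 (adjusted p = 2.5e-05, permutation, over 5 regions compared). The difference in the left flank reached 0.75 ± 0.25 in chr7:58000001-58050000 (n = 48, limma adjusted p = 2.4e-28), where musculus was earlier in 48 of 48 clones. Of the GABA-A receptor subunit genes described here, Gabra5 had 0.30 ± 0.22, with musculus earlier in 46 of 53 clones, whereas Gabrg3 had 0.02 ± 0.11. Atp10a, an imprinted phospholipid flippase gene next to Ube3a, went the other way, with -0.21 ± 0.17 and musculus earlier in 5 of 53 clones. Further out, Herc2 was early on both homologs (0.87 on musculus and 0.69 on castaneus, difference 0.18 ± 0.12) and Oca2 had 0.09 ± 0.10.

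In the 40 windows on the right, both homologs rose from late at Chrna7 (-1.05 and -0.98 on musculus and castaneus) through Otud7a (0.21 and 0.28) to early at Klf13 (1.26 and 1.26), and Trpm1 had 0.92 and 1.04. The flank's difference was -0.09 ± 0.09, and the domain's was higher by 0.04 ± 0.10 (permutation adjusted p = 0.00397). This call was lost with cell lines as units (0.02, adjusted p = 0.293) and without the COSN123 clones (0.02, adjusted p = 0.339). Against the rest of chromosome 7 (-0.03 ± 0.03) the domain differed by -0.02 ± 0.09 (permutation adjusted p = 0.14). With cell lines as units this became -0.04 (adjusted p = 0.00638).

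The 2 other imprinted domains were early. Igf2-H19-Kcnq1 (chr7:142000001-144000000) had 0.61 ± 0.16 on musculus and 0.69 ± 0.15 on castaneus, with a difference of -0.08 ± 0.07, and Dlk1-Meg3 (chr12:109000001-111000000) 1.05 ± 0.08 and 1.195 ± 0.07, with a difference of -0.15 ± 0.06 and castaneus earlier in 53 of 53 clones. The Snrpn-Ube3a difference was nearer 0 than that of Dlk1-Meg3 by 0.10 ± 0.12 (permutation adjusted p = 2.5e-05) and than that of Igf2-H19-Kcnq1 by 0.04 ± 0.12 (permutation adjusted p = 0.0275). The latter was lost without COSN12 clone C6 (adjusted p = 0.0503) or COSN12 clone D3 (adjusted p = 0.0505), with cell lines as units, with the median over windows and without the COSN123 clones.

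**Figure D4:**
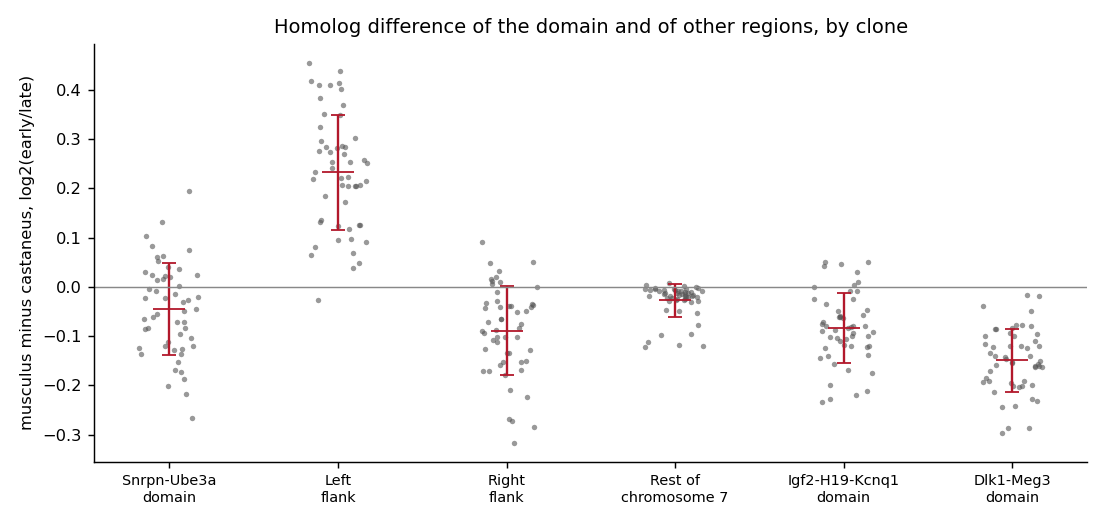
musculus minus castaneus in log2(early/late), averaged over the windows of each region, one point per clone (n = 53), for the domain, its flanks, the rest of chromosome 7 and 2 other imprinted domains. Red bars are the mean ± 1 SD. The domain lies near 0 (-0.05) and the left flank above it (0.23).

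Clones varied in the domain's homolog difference more than in most of the genome. The SD of musculus minus castaneus between clones was 0.24 at the median of the 22 windows against 0.18 over all windows tested, 90.1% of which had a lower SD than the domain's median. A spread of this size was also present in the left flank, but most windows tested of the right flank had a lower SD than the domain's median. In the windows tested of the left flank the SD ran from 0.19 (chr7:58700001-58750000) to 0.33 (chr7:57850001-57900000). In those of the right flank it ran from 0.11 (chr7:63600001-63650000) to 0.28 (chr7:62900001-62950000). The SD of the mean of both homologs was 0.18 in the domain and over all windows tested. The 19 cell lines with 2 or more clones (46 clones) were then compared by a moderated F-test in limma. The mean of both homologs differed between cell lines in 14 of the 22 windows, against 71.7% of 37556 windows in the genome. The musculus minus castaneus difference differed in 5 of the 22, against 9.84%. These 5 windows, named after their values were seen, are chr7:59900001-59950000 and chr7:59950001-60000000 below the Snurf/Snrpn start, and chr7:60100001-60150000, chr7:60200001-60250000 and chr7:60250001-60300000 above it. The count fell to 3 when the cell line AOSN.COSN12 or the cell line CR14.6k left the comparison. Leaving out either clone of these lines removes the line, since 2 or more clones were required. Without the COSN123 clones none of 16 windows was called for the difference and 8 of 16 for the mean. The share over all windows was not computed without these clones, so these counts have no background.

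Over the 22 windows, the cell-line mean of musculus minus castaneus ran from -0.21 in BOSN1.COSN123 (2 clones, -0.22 and -0.21) to 0.19 in COSN12 (3 clones, 0.17 to 0.21), with a median of -0.02. It was below 0 in 12 cell lines and above 0 in 7. Clone values here are over those of the 22 windows that the clone has. The SD between cell lines was 0.09 and the pooled SD within them 0.08. In the run upstream of the Snurf/Snrpn start, 17 of the 19 cell lines were below 0, from -0.58 in CR14.6k to 0.06 in A.COSN123 (4 clones), and the pooled SD within cell lines, 0.19, exceeded that between them, 0.16. The run was chosen by its low values in these same clones, so this count is a description only. Cell line and preparation cannot be told apart. Among A.COSN123 and AOSN.COSN123, the label descriptions set 3 libraries apart by a shared tag. The domain's difference was 0.02 in these (from -0.02 to 0.06) and -0.02 in the other 3 (from -0.12 to 0.10), so that the sets overlapped.

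**Figure D5:**
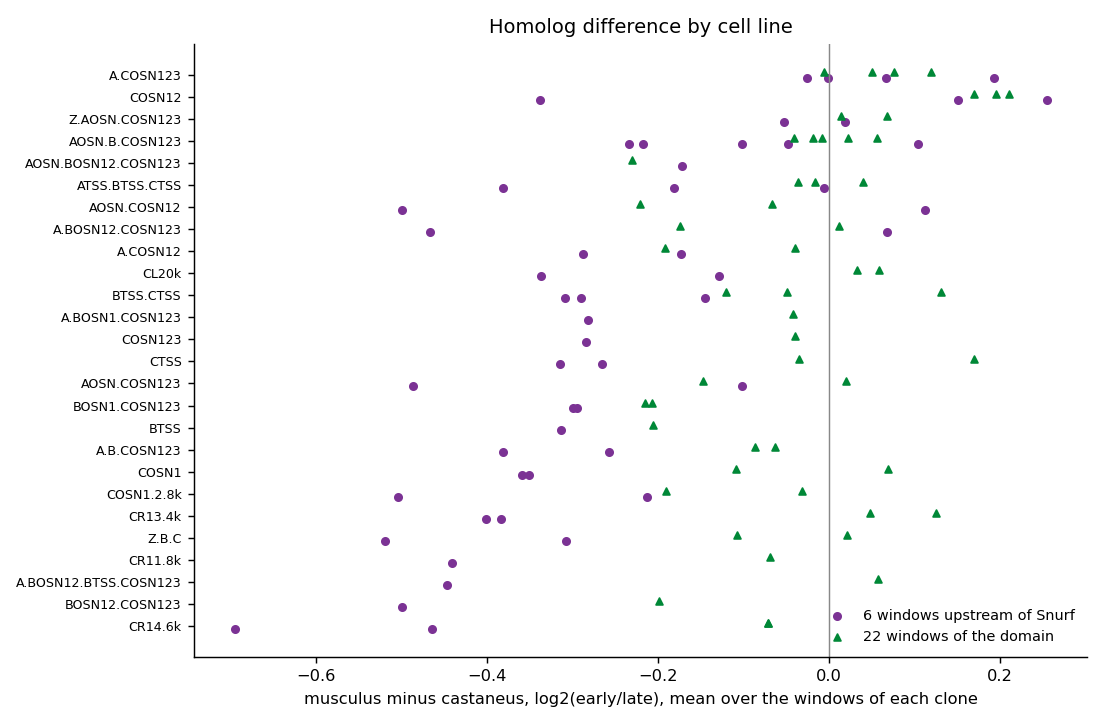
musculus minus castaneus in log2(early/late) for each clone, by cell line, averaged over the 6 windows upstream of the Snurf/Snrpn start (purple circles) and over the 22 domain windows with both homologs in at least 80% of clones (green triangles). Each point is over those of the windows that the clone has, and BTSS.CTSS clone G3 had both homologs in only 4 windows of the domain. Cell lines are ordered by the mean of the circles. The circles are below 0 in 45 of 53 clones, over windows chosen by their low values in these same clones.

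The genes outside chromosome 7 whose homolog difference followed that of the domain most closely over clones were Smarca2 on chromosome 19 (Pearson r = 0.65, n = 53 clones), Far2 on chromosome 6 (r = 0.62, n = 53) and Lrrk2 on chromosome 15 (r = 0.61, n = 50). They were picked as the highest of 35508 windows, whose r had a 5th percentile of -0.22, a median of 0.08 and a 95th percentile of 0.36. Points of these correlations share a library and its normalization.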

How the data were processed

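Cells had been labelled with BrdU for 2 h and sorted into early and late S phase. Per the paper's methods, the authors trimmed reads (TrimGalore), aligned them to N-masked mm10 (bowtie2), assigned them to homologs (SNPsplit), removed duplicates (Samtools) and counted them in 50 kb windows (bedtools). They deposited log2(E/L) values per homolog (musculus, strain 129, as genome1 and castaneus, CAST, as genome2), scaled, quantile-normalized and loess-smoothed over 300 kb, so neighbouring windows are not independent. Tool versions are not stated. Only ratios are given, so depth is unknown and precision is the spread between clones.

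All 138 columns were used, with repeat runs of 3 clones averaged. The 10 samples (5 libraries) without a column were not analysed here. The members, gene lists and tests were chosen with earlier results of these data known. Values were averaged per clone. Means were tested by two-sided sign-flip permutation over clones (100000 resamples, Python 3.11.15, numpy 2.4.6), windows with limma 3.58.1 in R 4.3.3, with Benjamini-Hochberg adjustment over all windows with both homologs in at least 80% of clones. Both were tested on simulated data. Genes were named by fixed lists, by extreme windows and clones, and by the highest correlation over clones. A gene's value is the mean over windows that its RefSeq body (GRCm38, the build of the files) overlaps. Alternatives were other units, summaries, filters, centring, left-out clones and a replicate block. One gene of the flanking list is not reported here.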

Additional observations from a re-analysis of the deposited data

Results flagged for a closer look

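In 57 sets of 4 to 10 libraries of a cell line, each a segment or the domain on a homolog or as their difference, 3 had one library far from the others, and chance alone is expected to single out about 1 set in 20. In AOSN.B.COSN123, clone 5A.2 replicate 2 had -0.76 on castaneus from Ndn to Mkrn3, and the other 9 libraries ran from -1.31 to -1.11. In COSN123, clone A10 replicate 1 had a musculus minus castaneus difference of -0.11 from Ube3a to Snrpn, and the other 3 ran from 0.05 to 0.08. In CTSS, clone C12 replicate 1 had -1.19 on castaneus from Ube3a to Snrpn, and the other 3 ran from -0.89 to -0.86. The musculus minus castaneus difference also differed between cell lines in 5 of 22 domain windows (moderated F-test in limma), against 9.84% of windows in the genome. No domain window was called without the COSN123 clones, where 16 could be tested and the share over all windows was not computed.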

How the results depend on the processing

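With centring on each clone's median difference, a mean difference of at least 0.5 or the interval from Ube3a to Mkrn3, no tested mean crossed the threshold and no count of windows changed. With libraries as units no tested mean crossed it either, and the windows called between cell lines numbered 10 and 4 of 17 (mean of both homologs and difference) in place of 14 and 5 of 22. In all, 105 of 151 values kept their direction and their side of the threshold, or, for counts, stayed within 1.5 times. The timing differences between segments kept both in every alternative that gave a value. The cause of the changes was not tested, except that some alternatives hold fewer clones or windows. Values below are musculus minus castaneus in log2(E/L), or differences of it.

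With cell lines as units, the Ndn to Mkrn3 segment was at -0.0047 (reversed), it differed from the interval by 0.0951 and Ube3a to Snrpn differed from the interval by 0.0552 (both no longer called). The domain then differed from the right flank by 0.0186 and from Igf2-H19-Kcnq1 by 0.0201 (no longer called) and from the rest of chromosome 7 by -0.0418 (now called). With the median over windows, Ube3a to Snrpn against the interval (0.0496) and the domain against Igf2-H19-Kcnq1 (0.0107) were lost. Without the COSN123 clones, both outer segments against the interval (0.0842 and 0.0962), the right flank (0.0199) and Igf2-H19-Kcnq1 (0.0235) were lost. A single window had both homologs in every clone, and it put the domain and the Ube3a to Snrpn segment at 0.0375 and the domain against the rest of chromosome 7 at 0.0802, all reversed, while the other segments gave no value. With windows in at least 80% of clones, chosen after seeing the data, the domain (-0.0258), the interval (-0.0558) and the outer segments against it (0.0402 and 0.0795) were no longer called, and the rest of chromosome 7 reversed (0.0037).

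By window, earlier on castaneus were 3 with a value in at least 3 clones, 5 by adjusted p alone (1 on musculus), 3 with cell lines as units (34 tested) and 1 without the COSN123 clones (14 tested). Between cell lines, 1 window was called on the mean of both homologs and 0 on the difference with a value in every clone used (1 tested), and 8 and 0 without the COSN123 clones (16 tested). Leaving out each clone in turn gave 0 to 2 windows earlier on castaneus, 3 to 6 for the difference between cell lines, 0.0425 to 0.0649 and 0.0721 to 0.096 for Ube3a to Snrpn and Ndn to Mkrn3 against the interval, and 0.0327 to 0.0434 against Igf2-H19-Kcnq1. Between cell lines, leaving out 1 clone of a line with 2 removes that line.

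Replicate numbers recur across cell lines but did not pair the 24 numbered libraries (correlation of deviations -0.425 to 0.394 for 86 pairs with the same number, median -0.0131). With the replicate block, whose mean weights each number equally, the domain was at 0.0475, Ube3a to Snrpn at 0.0328, the interval at 0.0603, the outer segments against it at -0.0274 and -0.0178 and the rest of chromosome 7 at 0.0783 (all reversed), and the left flank at -0.0964 (no longer called). In the same libraries without the block, added after seeing the data, the domain (-0.0214), the interval (-0.048) and the outer segments against it (0.0547 and 0.0573) were not called, and Ube3a to Snrpn (0.0067) and the rest of chromosome 7 (0.0141) reversed. Between cell lines, 0 of 4 windows were called on either measure with or without the block.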
